A study of Mus musculus with 12 samples.

Results

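Chromatin accessibility was examined at 37 nuclear genes whose products shape, build and survey mitochondria in hematopoietic stem cells (HSCs). The genes encode factors of mitochondrial fusion, fission, mitophagy, mitochondrial DNA (mtDNA) maintenance and transcription, outer and inner membrane channels, protein import, chaperones, proteases, cristae organization and redox defense. The rule that chose them used their function and no measured value, though they were chosen with earlier results of these data known. Their regions were the stretches of open chromatin called by ATAC-seq within each gene body or 10 kb on either side, and 111 of the 70993 regions in the whole data set met this rule. Of these 111 regions, 38 lay within 1 kb of an annotated start of one of the 37 genes and are called promoter regions. Another 24 lay within 1 kb of a start of a neighboring gene only, and 49 lay over 1 kb from every annotated start and are called distal.

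Mitochondria are divided by the GTPase encoded by Dnm1l and joined by the GTPases encoded by Mfn1, Mfn2 and Opa1. Damaged units are marked by the kinase PINK1 or by membrane receptors such as BNIP3 and are then removed by autophagy. Nearly all mitochondrial proteins are coded in the nucleus, so the organelle depends on nuclear promoters, on import through the TOM and TIM complexes, and on chaperones and proteases that fold or degrade what arrives. HSCs keep respiration low while quiescent, and their mitochondria are known to deteriorate with age. MLKL is the pseudokinase that executes necroptosis, and the study asked how its loss bears on the aging of HSCs.

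The study profiled HSCs (Lin-/cKit+/Sca1+/Flk2-/CD48-/CD150+ bone marrow cells) of C57BL/6 mice in 4 groups of 3 libraries. Young WT and Young Mlkl-/- mice were 3 months old, and Aged WT and Aged Mlkl-/- mice were 18 months old. Each replicate was a pool of HSCs from several mice, and p-values measure the spread between these pools only. Per the study's methods, young pools drew on more mice than aged pools, so pool size cannot be told apart from age. A pool cannot tell fewer cells with an open site from a less open site in every cell.

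Each library was represented by its list of peak summits, and each summit carried a deposited score, the −log10 of its q-value. The lists held 35714 to 61495 summits with a score of at least 3, from 35714 to 56368 in young and from 47032 to 61495 in aged HSCs, and read depth was unknown. To make lists comparable, each was also cut to its 35714 highest-scoring summits. The list percentile of a region is its place from 0 to 100 among all regions in 1 such equal-length list, with the highest score at 100. A region without a summit in that list is given as not called. Summits at Y-linked genes were found in 3 of the 6 young lists and in 0 of the 6 aged lists, so age cannot be fully told apart from the sex of the pooled mice. Of the HSC marker genes reported, Kit and Hlf carried a summit within 1 kb of a start in 12 of 12 lists, Procr in 9, Ly6a in 6, Mecom in 5 and Slamf1, which encodes CD150, in 0. The T cell markers Cd3e and Cd3g, the B cell markers Cd79a and Pax5, the myeloid markers S100a8, Elane and Csf1r, the erythroid markers Hba-a1 and Klf1 and the endothelial marker Cdh5 carried none in any list. Lck was marked in 1 list, Cxcl12 in 2, Itgam in 3 and the collagen gene Col1a1 in 11. The start of Mlkl itself carried a summit in all 12 lists, with scores of 5.45 to 7.58 in WT and of 4.64 to 11.0 in Mlkl-/- libraries, which does not test for the deletion.

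Promoters of the mitochondrial genes were open in every group. Of the 37 genes, 35 had a promoter region called in all 12 lists, or 94.6%, while 49.7% of all protein-coding genes had one. The exceptions were Ppargc1a and Ppargc1b, which encode the PGC-1 coactivators that drive mitochondrial biogenesis. Counted by region, 35 of the 38 promoter regions were called in all 12 lists (92.1%), and among all regions within 1 kb of any start 59.3% were. As many promoter regions, 35, were held in all 12 equal-length lists. By gene, the mean list percentile of the main promoter region ran, over 35 genes, from 46.6 to 98.2 with a median of 82.9, beside a median of 75.3 for the main promoter regions of the 9308 protein-coding genes held in all 12 equal-length lists. The main promoter region of a gene is the one with the highest mean rank where it has more than 1, as Fis1 and Ppargc1a had.

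**Figure D1:**
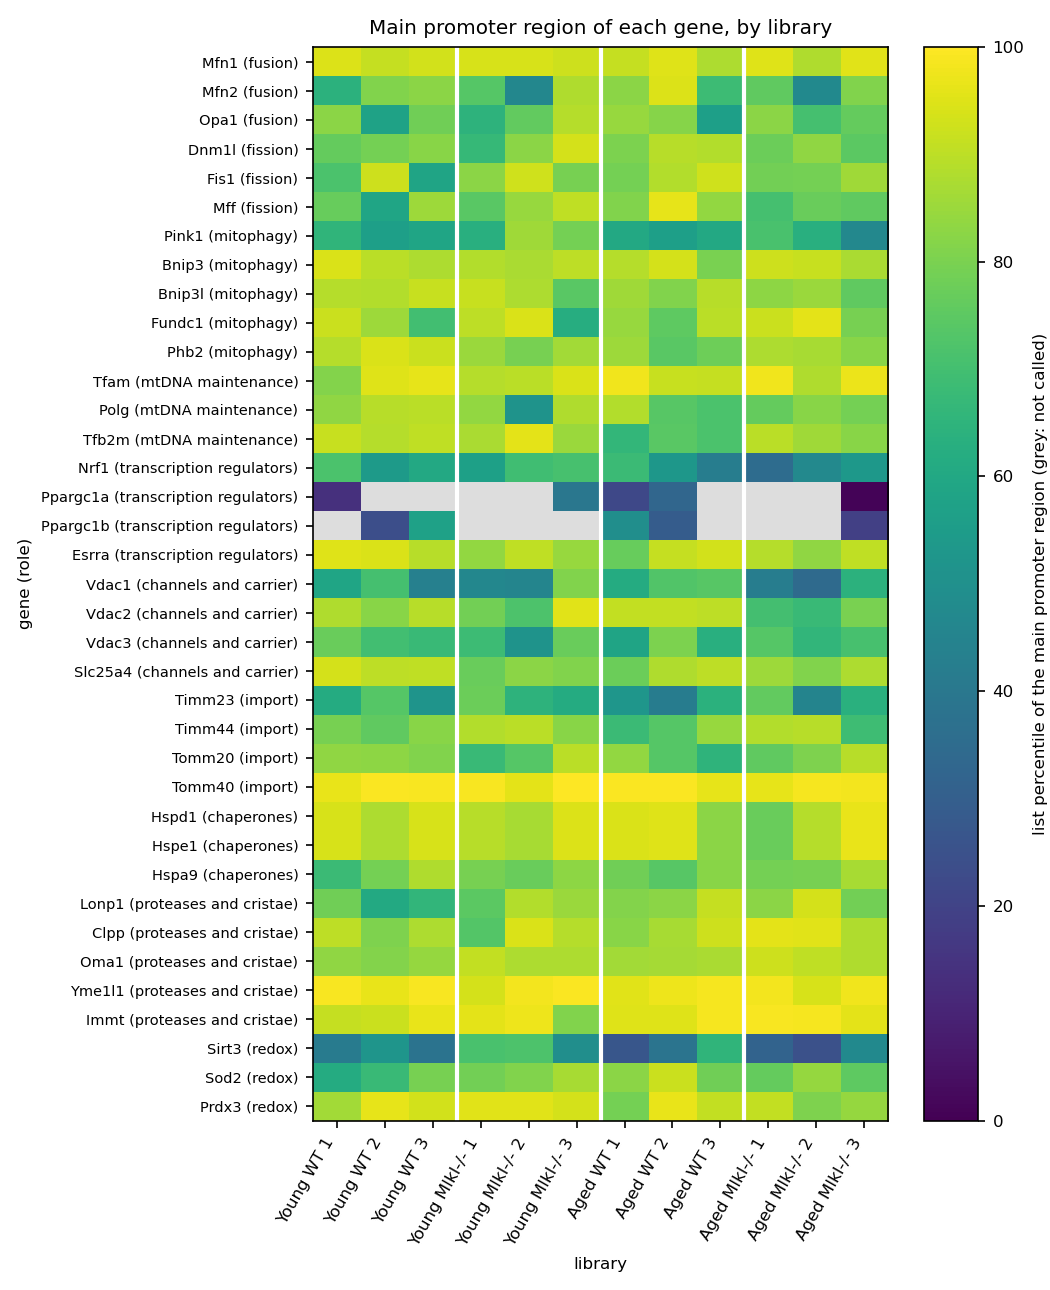
List percentile (0 to 100, color) of the main promoter region of each of the 37 genes (rows, with roles) in each of the 12 libraries (columns), where grey marks a library whose equal-length list did not hold the region. Most rows stayed above a percentile of 50 in all 4 groups, and only the rows of Ppargc1a and Ppargc1b have grey cells.

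The 3 highest main promoter regions were those of Tomm40, Yme1l1 and Immt. The promoter region of Tomm40, the pore of the outer membrane translocase, had list percentiles of 96.6, 99.6 and 99.2 for Young WT, 99, 95.7 and 99.7 for Young Mlkl-/-, 99.6, 99.4 and 96.4 for Aged WT and 96.5, 98.6 and 98.3 for Aged Mlkl-/- HSCs. That of Yme1l1, the inner membrane protease that trims OPA1, ran from 93.7 to 99.3 over the 12 libraries and lies at a shared start with Mastl. That of Immt, which encodes the MICOS subunit that holds cristae junctions, had 91.0, 91.9 and 96.8 for Young WT, 95.9, 97.7 and 81.1 for Young Mlkl-/-, 95.0, 95.1 and 98.7 for Aged WT and 99.2, 98.5 and 95.8 for Aged Mlkl-/- HSCs. The ranges of these 3 regions over the 12 libraries overlapped.

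By role, the 3 fusion genes had mean list percentiles of 73.8 (Mfn2), 75.1 (Opa1) and 92.7 (Mfn1). The fission genes lay close together at 79.6 for Mff, the receptor of the division GTPase, 81.2 for Dnm1l itself and 81.7 for Fis1. Of the 5 mitophagy genes, Pink1 was lowest at 64.0, and Fundc1, Phb2, Bnip3l and Bnip3 had 84.2, 85.0, 85.2 and 89.3. The mtDNA genes Polg (the mtDNA polymerase), Tfb2m (a mitochondrial transcription factor) and Tfam (the mtDNA packaging factor) had 79.8, 84.1 and 92.5. The porin genes Vdac1, Vdac3 and Vdac2 had 57.9, 68.6 and 82.9, and the ATP/ADP carrier gene Slc25a4 had 85.4. Among import genes Timm23 had 61.2, Tomm20 78.8, Timm44 80.9 and Tomm40 98.2. The chaperonin genes Hspd1 and Hspe1 share 1 divergent promoter region at 90.1, and Hspa9 had 79.6. The protease genes Lonp1, Oma1, Clpp and Yme1l1 had 80.3, 87.1, 88.0 and 97.3. Of the redox genes, the superoxide dismutase gene Sod2 had 78.6, the peroxiredoxin gene Prdx3 90.2 and the deacetylase gene Sirt3 46.6.

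Regulators of mitochondrial genes spanned the widest range of places among the roles, with mean list percentiles from 21.8 for Ppargc1a, taken over the 5 lists that held it, to 88.5. Nrf1, the factor that activates many nuclear genes for respiration, had a mean list percentile of 56.9 (range 35.2 to 71.6), and Esrra, an estrogen-related receptor, had 88.5. The higher of the 2 promoter regions of Ppargc1a, 0.81 kb downstream of the nearest annotated start, was called in 11 of 12 full lists but only in 5 equal-length lists, where Young WT 1 had 13.8, Young Mlkl-/- 3 had 39.7, Aged WT 1 and 2 had 21.6 and 32.9, and Aged Mlkl-/- 3 had 1.16. The other, with its summit 49 bp from a start, was called in 10 full lists and held at 5.12 and 14.3 in Young WT 2 and 3, at 11.4 and 22.0 in Young Mlkl-/- 1 and 2 and at 48.6 in Aged WT 1. Neither region was held by more than 2 equal-length lists of any group. The promoter region of Ppargc1b was held at 23.8 and 57.1 in Young WT 2 and 3, 49.3 and 28.9 in Aged WT 1 and 2 and 19.1 in Aged Mlkl-/- 3, and it was called in 10 full lists. The lowest promoter region held by every list was that of Sirt3, the main mitochondrial deacetylase, with 41.6, 52.2 and 38.2 for Young WT, 71.2, 72 and 49.5 for Young Mlkl-/-, 26.7, 38.6 and 65.4 for Aged WT and 31.7, 24.7 and 47.3 for Aged Mlkl-/- HSCs. All 3 Aged Mlkl-/- values lay below the 3 of Young Mlkl-/-, and every other pair of groups overlapped. The 2 highest Young Mlkl-/- libraries lay above the other 10.

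Promoter regions of the mitochondrial genes were rich in CpG. Their median GC content within 100 bp of the highest summit was 65.9%, and their median CpG ratio (observed over expected) was 0.853, beside 63.2% and 0.734 for all regions within 1 kb of a start. They were also wider, with a median of 1040 bp beside 772 bp. Width depends in part on how many lists called a region, since windows were merged over the lists. All 12 lists called 92.1% of these promoter regions, beside 59.3% of all regions at a start. The comparisons of width, GC and CpG were not matched for this. Besides Hspd1 and Hspe1, 6 promoter regions also covered the start of another protein-coding gene, namely those of Lonp1, Phb2, Sirt3, Tfb2m, Timm23 and Yme1l1, so their summits cannot be given to 1 gene alone.

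Exact motifs of 7 factor families were looked for, on either strand, up to 100 bp from the highest summit of each region. The ETS motif CCGGAAGT, bound among others by GABP, an activator of nuclear genes for mitochondrial proteins, was in 8 of 38 promoter regions, or 21.1%, beside 4.29% of all regions at a start and 6.39% of those called in all 12 lists. The cAMP response element TGACGTCA was in 3 (7.89%, beside 2.05% and 2.92%), and the NRF1 motif GCGCATGCG was in 2 (5.26%, beside 1.72% and 2.55%). The SP motif GGGCGGG was in 17 (44.7%, beside 31.2% and 39.2%), the E-box CACGTG in 5 (13.2%, beside 6.87% and 8%) and the YY1 motif AAGATGGCG in 1 (2.63%, beside 1.43% and 2.12%). The ERR motif TCAAGGTCA was in 0 of 38, beside 0.107% and 0.0632%. These exact letters are a description and do not show that a factor was bound.

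**Figure D2:**
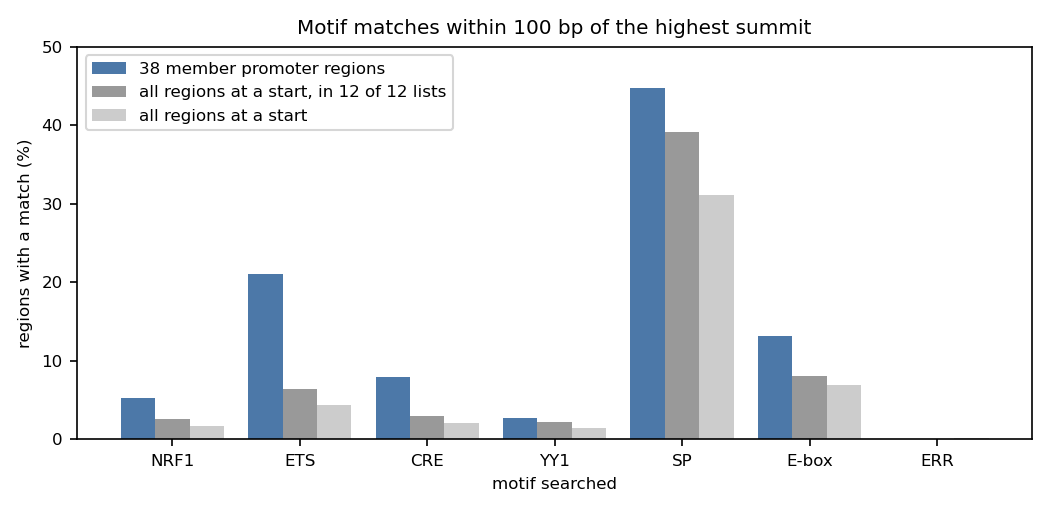
Share of regions (%) with at least 1 exact motif match within 100 bp of the highest summit, for the 38 promoter regions of the mitochondrial genes and for all regions at a start, overall or called in 12 of 12 lists. The ETS bars differ most in ratio, at 21.1% beside 6.39% and 4.29%.

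The ETS matches lay in genes of fission, fusion, mitophagy, mtDNA maintenance, import and redox defense. The 8 sites are printed from the GRCm38 (mm10) reference on the strand that reads the motif, 30 bases each, with the motif in capitals, to show that the letters around the shared core differ from gene to gene.
Fis1 (chr5:136953246-136953275, plus strand): ggaggcaccacCCGGAAGTtcaggcttccc
Mfn1 (chr3:32529427-32529456, plus strand): gatccgaagcgCCGGAAGTagccgccccta
Phb2 (chr6:124712204-124712233, minus strand): gaatggcgcatCCGGAAGTcccgcctcttg
Polg (chr7:79466293-79466322, minus strand): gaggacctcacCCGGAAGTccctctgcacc
Sirt3 (chr7:140882377-140882406, plus strand): cgcccgcggtgCCGGAAGTgagcgagcact
Tfam (chr10:71238073-71238102, minus strand): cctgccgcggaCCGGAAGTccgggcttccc
Timm23 (chr14:32201921-32201950, plus strand): ctgtgtgcggcCCGGAAGTgggaagcgcga
Tomm20 (chr8:126945844-126945873, minus strand): gtcctcgcgcgCCGGAAGTcctcgcgctcg

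The NRF1 and cAMP response element matches are shown in the same way, since NRF1 and CREB are among the factors known to act on nuclear genes for mitochondria.
Opa1 (chr16:29579265-29579294, minus strand): cggatgacatGCGCATGCGcggggagccac
Tfb2m (chr1:179546246-179546275, plus strand): attacgaatgGCGCATGCGaacgacctagc
Bnip3l (chr14:67008891-67008920, minus strand): cgggagggcccTGACGTCAcgaagggaggg
Ppargc1a (chr5:51553987-51554016, minus strand): ctgccttggagTGACGTCAggagtttgtgc
Yme1l1 (chr2:23155928-23155957, minus strand): cagacgcgcggTGACGTCAcgggaggcgtc

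Distal regions of the mitochondrial genes were less constant than promoters. Of the 49, 8 were called in all 12 lists (16.3%, beside 17.6% of all regions over 1 kb from every start) and 9 in a single list (18.4%, beside 20.5%). By the position of the highest summit, 24 lay in an intron, 15 downstream and 8 upstream of the gene, 1 in a coding exon and 1 in a UTR. Their median GC content was 51.2% and their median CpG ratio 0.205, beside 49.8% and 0.232 for all regions that far from a start. The constant 8 were at Bnip3, Bnip3l, Nrf1, Ppargc1b, Sirt3, Sod2, Tomm20 and Vdac2. No distal region was found at 14 genes, among them the fission genes Dnm1l and Mff, the 3 chaperone genes and the protease genes Lonp1, Clpp and Yme1l1, whereas Oma1 and Ppargc1b had 4 each. Of the 24 regions at starts of neighboring genes, 17 were called in all 12 lists, beside 59.3% of all regions within 1 kb of any start.

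**Figure D3:**
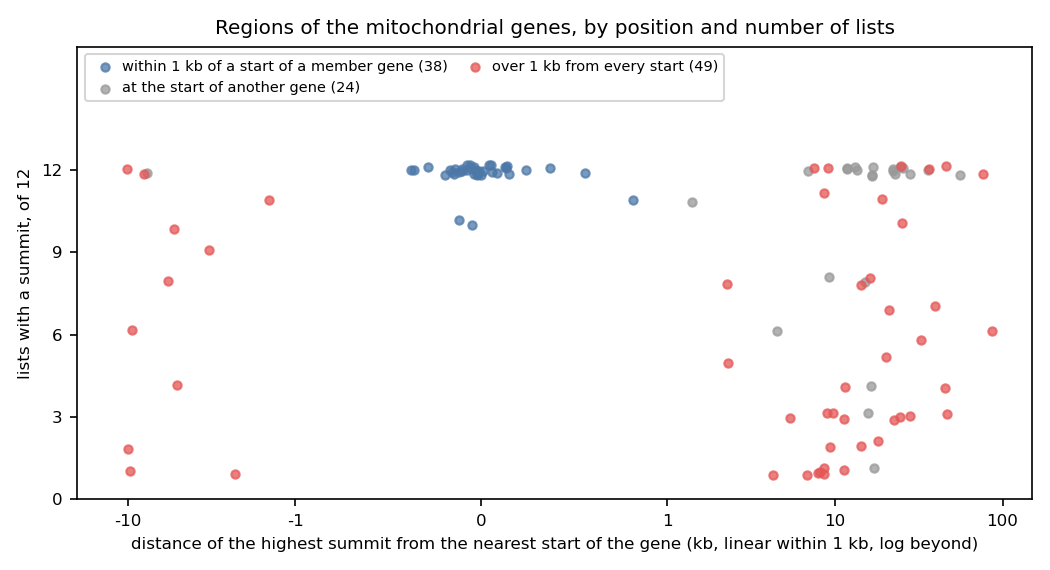
Distance of the highest summit of each of the 111 regions from the nearest start of its gene (kb, linear within 1 kb and logarithmic beyond; negative is upstream) against the number of lists with a summit (points are spread slightly around each whole number). Promoter regions sit at 12 lists except 3, and distal regions spread from 1 to 12.

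Counts of distal calls differed between full and equal-length lists. Over the full lists, 28 of the 49 distal regions were called in more aged than young lists (57.1%) and 9 in more young lists (18.4%), beside 54.2% and 19.5% of all distal regions. In equal-length lists, 30 of the 49 were called at all, 11 in more aged and 11 in more young lists (36.7% each, beside 38.4% and 34.0% of all distal regions). For genotype, 25 were called in more Mlkl-/- than WT full lists (51.0%) and 9 in more WT lists (18.4%), beside 38.1% and 26.3% of all, and in equal-length lists both counts were 11 (36.7% each, beside 37% and 29.1%). The number of distal regions held by an equal-length list was 14.7 ± 0.58 for Young WT, 15 ± 1.0 for Young Mlkl-/-, 13.3 ± 2.5 for Aged WT and 15 ± 1.7 for Aged Mlkl-/- HSCs (mean ± SD, n = 3 libraries).

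To ask whether aging altered these regions, ranks in the equal-length lists were turned into normal scores (the normal quantile of the rank) and compared with limma over all 37870 regions held in at least 3 such lists. Regions not called share the lowest score of their library, from -0.82 to -0.75. Of the 111 regions, 82 could be tested (38 promoter, 20 at other starts, 24 distal), and the 29 others were held in too few equal-length lists. Of the 82, 8 reached 3 lists through young libraries only and 8 through aged libraries only, so the filter itself favored 1 direction of difference with age for such a region. It fixed the direction for the 3 held by no aged list and the 1 held by no young list. No tested region of the mitochondrial genes passed an adjusted p of 0.01 for age over both genotypes, beside 3.26% of all tested regions. That share depends on the class of region, at 0.861% within 1 kb of any start, where 58 of the 82 lay, and 4.69% farther away. At an unadjusted p below 0.05 there were 9 of 82 (11.0%, beside 22.6% of all tested regions), of which 5 were lower and 4 higher in aged HSCs. By class these were 4 of 58 within 1 kb of a start (6.90%, beside 12.8% of all such regions) and 5 of 24 distal regions (20.8%, beside 28.4%). At an adjusted p below 0.05 there were 2, both lower in aged HSCs, beside 8.33% of all tested regions in either direction. The median list percentile of the promoter regions a library held was 82.8 ± 1.48 for Young WT, 83.4 ± 3.59 for Young Mlkl-/-, 82.7 ± 0.92 for Aged WT and 81.9 ± 1.76 for Aged Mlkl-/- HSCs (mean ± SD over 3 libraries). The median difference (aged minus young normal score) was -0.05 over the 38 promoter regions, beside -0.04 over all tested regions within 1 kb of a start. Over the 24 distal regions it was -0.04, beside 0.03 over all tested distal regions. In WT alone 0 of 82 passed (0.298% of all tested) with 8 at an unadjusted p below 0.05 (9.76%, beside 14.9% of all tested regions). In Mlkl-/- alone 0 of 82 passed (0.327% of all tested) with 9 at that level (11.0%, beside 14.8%).

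**Figure D4:**
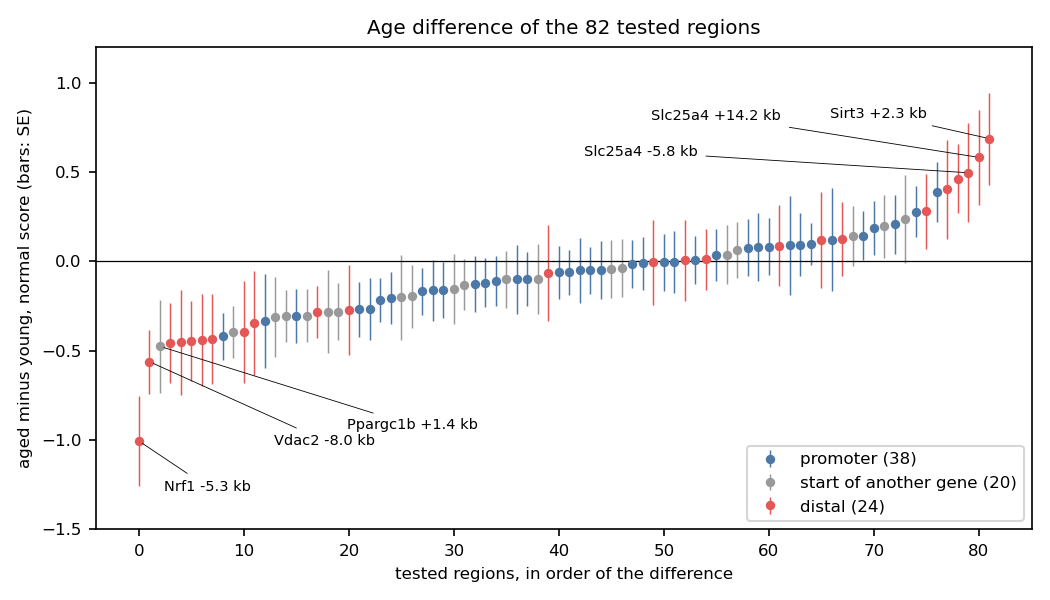
Age difference (aged minus young, normal score) of the 82 tested regions in order, with bars for the standard error from limma and colors for promoter regions, regions at other starts and distal regions. The promoter regions stay between -0.42 and 0.39, and the lowest point is the distal region upstream of Nrf1 at -1.01.

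The region with the lowest p for age lay 5.3 kb upstream of the nearest start of Nrf1 (chr6:30042354-30042947). Its list percentiles were 22.6, 25.7 and 67.5 in Young WT and 33.3, not called and 43.0 in Young Mlkl-/- HSCs, and it was not called in any of the 6 aged equal-length lists. In the full lists it had summits in 6 of 6 young libraries with scores of 7.39 to 16.2 and in 4 of 6 aged libraries with scores of 4.48 to 5.91. The 5 young libraries that held it thus stood apart from all aged ones, and Young Mlkl-/- 2 did not. The normal score was 0.21 ± 0.57 in young and -0.79 ± 0.03 in aged HSCs (mean ± SD, n = 6), a difference of -1.01 ± 0.25 (SE) with an adjusted p of 0.0148 in limma, short of the threshold. The region entered the test through young lists only and all 6 aged values are the tied score of uncalled regions, so this direction was fixed by the filter and the p-value is no independent support for it. The difference was -1.21 ± 0.36 in WT (adjusted p = 0.0749) and -0.80 ± 0.36 in Mlkl-/- HSCs (adjusted p = 0.289). Without Young Mlkl-/- 2 the adjusted p was 0.0033, and with list length as a covariate the difference was -0.55 and the adjusted p 0.388. The promoter region of Nrf1 itself had mean list percentiles of 62.2 for Young WT, 65.7 for Young Mlkl-/-, 54.5 for Aged WT and 45.1 for Aged Mlkl-/- HSCs. The 201 bases around the upstream summit are given because this is the member region with the largest age difference, with the central 21 bases in capitals. They had 52.7% GC with 1 CpG, and none of the 7 motifs searched was in them.
Nrf1 upstream region (chr6:30042570-30042770, plus strand): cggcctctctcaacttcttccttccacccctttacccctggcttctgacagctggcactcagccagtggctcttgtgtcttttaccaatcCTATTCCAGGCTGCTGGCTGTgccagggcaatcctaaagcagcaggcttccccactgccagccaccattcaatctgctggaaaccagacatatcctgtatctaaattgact

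The promoter region of Tfb2m, the factor that opens mtDNA promoters for the mitochondrial RNA polymerase, was the other with an adjusted p below 0.05 for age. It is shared with the divergent gene Cnst (chr1:179545904-179547049) and had list percentiles of 91.8, 89.0 and 90.3 for Young WT, 87.3, 95.9 and 84.8 for Young Mlkl-/-, 66.1, 74.6 and 71.5 for Aged WT and 89.7, 85.6 and 82.2 for Aged Mlkl-/- HSCs. The 3 Aged WT libraries lay below the other 9, and Aged Mlkl-/- overlapped the young libraries. The normal score was 1.61 ± 0.21 in young and 1.19 ± 0.26 in aged HSCs (mean ± SD, n = 6), a difference of -0.42 ± 0.13 (SE) with an adjusted p of 0.0486 in limma. The difference with age was -0.63 ± 0.19 in WT (adjusted p = 0.0732) and -0.21 ± 0.19 in Mlkl-/- HSCs (adjusted p = 0.659), and the test of the gap between these, the age by genotype interaction, gave 0.43 ± 0.26 (adjusted p = 0.979). With the presence of Y-linked summits as a covariate the adjusted p for age was 0.287, and over all alternatives run on the same regions it lay between 0.0185 and 0.287.

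Vdac2, a porin that also restrains the apoptotic effector BAK, has an annotated gene body that begins at chr14:21825238, upstream of the starts used here. A region 8.0 kb upstream of the nearest of these starts (chr14:21822690-21823619) was held in all 12 lists. Its list percentiles were 55.8, 62.3 and 77.8 for Young WT, 47.1, 44.8 and 43.5 for Young Mlkl-/-, 19, 35.0 and 48.1 for Aged WT and 3.07, 9.69 and 11.4 for Aged Mlkl-/- HSCs. Within each genotype the aged libraries lay below the young ones, and across genotypes only Aged WT 3 reached into the young range. The age difference was -0.56 ± 0.18 in normal score with an adjusted p of 0.0532, and it was -0.55 ± 0.25 in WT and -0.58 ± 0.25 in Mlkl-/- HSCs. The genotype difference over both ages (Mlkl-/- minus WT) was -0.40 ± 0.18 (unadjusted p = 0.0349, adjusted p = 0.776). Its central 201 bases had 48.8% GC and 3 CpG and are printed with the 21 bases around the summit in capitals.
Vdac2 upstream region (chr14:21823152-21823352, plus strand): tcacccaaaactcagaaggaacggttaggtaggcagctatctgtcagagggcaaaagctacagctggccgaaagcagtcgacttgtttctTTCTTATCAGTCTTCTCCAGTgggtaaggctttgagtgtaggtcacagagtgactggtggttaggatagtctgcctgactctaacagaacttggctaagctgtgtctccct

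Of the promoter regions, those with the highest age differences were Immt, Lonp1 and Tfam. For Immt the difference was 0.39 ± 0.17 (adjusted p = 0.174), with the library values given above. Lonp1, the matrix protease, had list percentiles of 78.3, 60.9 and 65.8 for Young WT, 74.8, 88.5 and 84.9 for Young Mlkl-/-, 81.5, 82.6 and 91.4 for Aged WT and 82.7, 93.7 and 78.7 for Aged Mlkl-/- HSCs, with the 3 Young WT values below all 6 aged ones and a difference of 0.28 ± 0.14 (adjusted p = 0.253). Tfam had 81.6, 94.9 and 96.4 for Young WT, 89.0, 89.7 and 94.2 for Young Mlkl-/-, 97.8, 91.8 and 91.3 for Aged WT and 97.7, 88.2 and 97.1 for Aged Mlkl-/- HSCs. Its groups overlapped, and the difference was 0.21 ± 0.17 (adjusted p = 0.508).

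After Tfb2m, the lowest promoter differences with age were those of the Ppargc1a start (-0.33 ± 0.26, adjusted p = 0.499), which met the filter through young lists only, and of Prdx3, a matrix peroxidase. Prdx3 had list percentiles of 86.2, 96.2 and 93.2 for Young WT, 95.4, 95.4 and 93.4 for Young Mlkl-/-, 78.9, 96.8 and 90.9 for Aged WT and 90.8, 80.5 and 84.2 for Aged Mlkl-/- HSCs. The 3 Aged Mlkl-/- values lay below those of Young Mlkl-/-, and the WT groups overlapped. The difference over both genotypes was -0.31 ± 0.15 (adjusted p = 0.238).

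Away from promoters, the highest age differences were at Sirt3 and Slc25a4. A region in an intron of Sirt3, 2.3 kb from the nearest start, was held at 12.7 in Young Mlkl-/- 2, at 43.1 in Aged WT 3 and at 50.8, 60.9 and 15 in the 3 Aged Mlkl-/- lists, and it was not called in the other 7. Its difference was 0.69 ± 0.26 (unadjusted p = 0.0141, adjusted p = 0.106). Of its 5 calls, 3 were in the 3 libraries whose file names lack a tag that the other 9 carry, and within those 9 the difference was 0.58 ± 0.19 (adjusted p = 0.130).

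Slc25a4 had a region 14.2 kb downstream of its start, held at 4.61 in Young Mlkl-/- 1, 63.5 in Aged WT 3 and 28.7, 10.7 and 18.6 in Aged Mlkl-/- (0.58 ± 0.26, adjusted p = 0.191). A second region, 5.8 kb upstream, was held at 9.96 by Young WT 3, at 35.0 by Young Mlkl-/- 2, at 55.0, 8.12 and 12.9 by the Aged WT lists and at 13.6 and 38.7 by Aged Mlkl-/- 1 and 3 (0.50 ± 0.28, adjusted p = 0.296). Within the libraries with the tag the difference was 0.22 ± 0.19 (adjusted p = 0.571) for the first region and 0.70 ± 0.31 (adjusted p = 0.242) for the second. Like the region in the Sirt3 intron, both met the filter through aged lists only. Both were called in 6 of 6 aged full lists and in 2 of 6 young ones, while the aged lists were longer. The region of lower age difference next after those at Nrf1 and Vdac2 lay in an intron of Ppargc1b at the start of Mir378a, with list percentiles of 0.83, 16.8 and 25.4 for Young WT and 20.7, 48.0 and 37.1 for Young Mlkl-/- HSCs. Aged WT 1 and 2 had 25.8 and 40.9, Aged Mlkl-/- 1 had 21.1, and the other 3 aged lists did not hold it. Its difference was -0.48 ± 0.26 (adjusted p = 0.284).

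To ask whether Mlkl loss altered these regions in aged HSCs, Aged Mlkl-/- was compared with Aged WT. None of the 82 regions passed, and 0% of all 37870 tested regions did, with the lowest adjusted p among the members at 0.798. At an unadjusted p below 0.05 there were 5 of 82 (6.10%, beside 5.25% of all tested regions). At 3 months 0 of 82 and 0% of all passed, with 3 at an unadjusted p below 0.05 (3.66%, beside 5.41% of all tested regions). Over both ages 0 of 82 and 0% of all passed, with 4 at that level (4.88%, beside 6.26%). The age by genotype interaction was passed by 0 of 82 and 0% of all, with 3 at that level (3.66%, beside 4.73%).

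Of the 5 with an unadjusted p below 0.05 at 18 months, 2 were assigned to Vdac2. A region 20.2 kb downstream of the nearest Vdac2 start (chr14:21852427-21852992) lay closer to the start of Comtd1, at 3704 bp. This region was held at 23.4, 45.8 and 1.86 in the Aged Mlkl-/- lists and in no list of the other 3 groups. In the full lists it also had summits in 2 Aged WT libraries, with scores of 4.99 and 6.09, beside 9.33 to 11.8 in the 3 Aged Mlkl-/- libraries and none in the 6 young ones. The normal score was 0.15 ± 0.32 in Aged Mlkl-/- and -0.78 ± 0.04 in Aged WT HSCs (mean ± SD, n = 3), a difference of 0.93 ± 0.27 (SE, adjusted p = 0.798 in limma). The region met the filter of 3 lists through Aged Mlkl-/- libraries alone, so it could differ in this direction only and its values are a description. The Vdac2 promoter region (chr14:21830626-21831896) had list percentiles of 87.9, 82.4 and 89.4 for Young WT, 78.6, 72.1 and 95.4 for Young Mlkl-/-, 90.7, 90.7 and 89.9 for Aged WT and 70.2, 67.8 and 79.9 for Aged Mlkl-/- HSCs. The 3 Aged Mlkl-/- values lay below the 3 Aged WT values, and the young groups overlapped. The difference at 18 months was -0.60 ± 0.21 (unadjusted p = 0.00996, adjusted p = 0.840). The third was the Tfb2m promoter region, with a difference of 0.42 ± 0.19 (unadjusted p = 0.0318, adjusted p = 0.895) and the library values given above. The other 2, named after their values were seen, were the region in the Sirt3 intron (0.81 ± 0.37, adjusted p = 0.895) and the promoter region of Mff (-0.48 ± 0.22, adjusted p = 0.895). The downstream Vdac2 region had 53.2% GC and 4 CpG in its central 201 bases.
Vdac2 downstream region (chr14:21852581-21852781, plus strand): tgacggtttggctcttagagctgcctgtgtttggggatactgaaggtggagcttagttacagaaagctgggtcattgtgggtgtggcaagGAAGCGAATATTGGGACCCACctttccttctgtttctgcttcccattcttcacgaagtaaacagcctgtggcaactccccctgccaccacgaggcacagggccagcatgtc

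**Figure D5:**
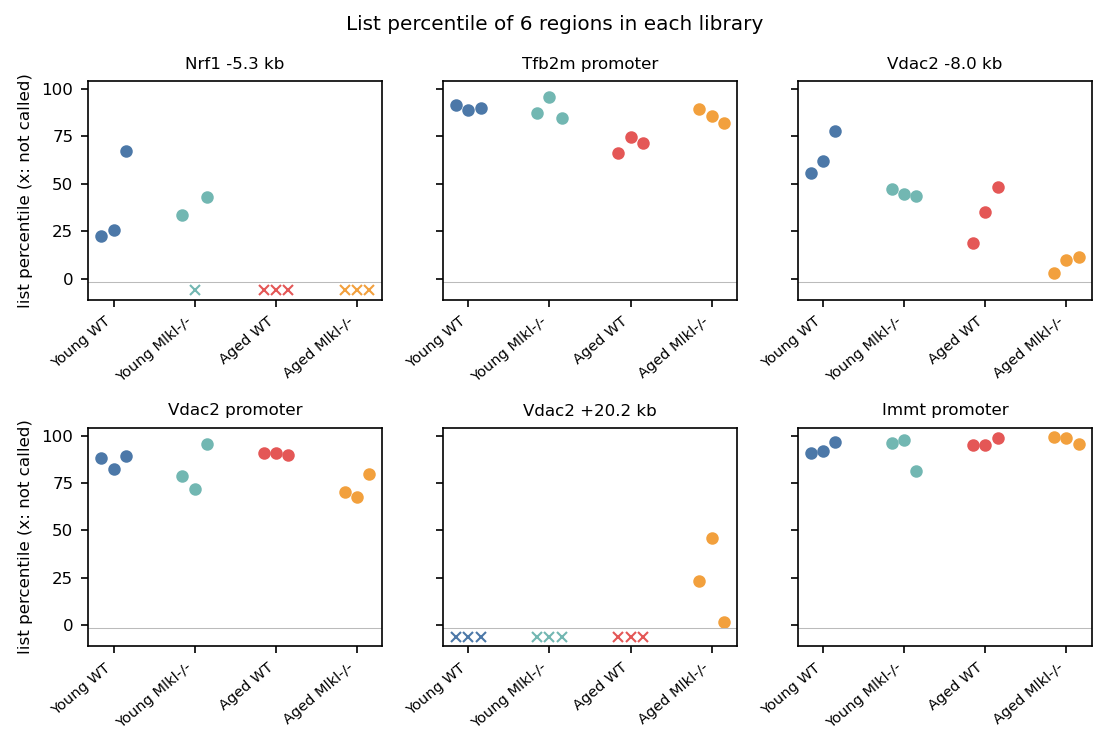
List percentile (0 to 100) of 6 regions in each library by group (3 points per group; a cross below the line marks a library whose list did not hold the region). Crosses fill both aged groups for the region upstream of Nrf1, and the downstream Vdac2 region has points in Aged Mlkl-/- only.

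Fundc1, a mitophagy receptor, is the only X-linked gene of the 37. Its promoter region differed with age by 0.09 ± 0.18 in normal score. Whether the sex of the pooled mice bears on it was not tested.

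A wider list of 91 other genes of mitochondrial quality control and biogenesis was examined in the same way. Of these 91, 86 had a promoter region called in all 12 lists, beside 49.7% of all protein-coding genes. The other genes of the list were Txnrd2 (11 lists), Tefm (9), Mtfp1 (3), Calcoco2 (0) and Perm1 (0). Of its 201 tested regions, 8 passed for age over both genotypes (3.98%, beside 3.26% of all tested regions), of which 7 fell and 1 rose with age. Over all tested regions 768 rose and 466 fell. Of the 93 promoter regions in the list 1 fell, and of the 108 others 6 fell and 1 rose. The shares over all tested regions were 0.861% within 1 kb of any start and 4.69% farther away. Only 3 of the 8 that passed in the list, at Tufm, Apool and Timm10, were held in all 12 equal-length lists. The regions at Clpx, Txnrd2, Minos1 and Gabpb1 met the filter through young lists only and the one at Gsr through aged lists only. At Minos1, Gabpb1 and Gsr no list of the other age held the region, so the filter fixed the direction. Those at Clpx and Txnrd2 were each held by 1 aged list, so there the filter favored a fall. The promoter of Tufm, the mitochondrial translation elongation factor, fell from 1.14 ± 0.12 to 0.51 ± 0.17 in normal score (mean ± SD, n = 6), a difference of -0.62 ± 0.14 (adjusted p = 0.00779 in limma). A region 5.8 kb upstream of Clpx, which encodes the unfolding partner of the protease CLPP, fell from 0.72 ± 0.19 to -0.68 ± 0.28 (difference -1.40 ± 0.23, adjusted p = 0.000433). Regions also fell at the MICOS genes Minos1 (-1.13 ± 0.22, 14.6 kb from the start) and, on the X chromosome, Apool (-0.75 ± 0.15, 59.7 kb), at the thioredoxin reductase gene Txnrd2 (-1.17 ± 0.23, 31.5 kb) and at the GABP subunit gene Gabpb1 (-0.97 ± 0.22, 2.0 kb). The seventh lay within the reach of the import chaperone gene Timm10 but at the start of Slc43a1 (-0.63 ± 0.14). The region that rose lay 19.9 kb from the start of Gsr, the glutathione reductase gene, and had a summit in all 6 aged full lists and in none of the 6 young ones (1.02 ± 0.24, adjusted p = 0.00933). For genotype at 3 months, at 18 months, over both ages and for the interaction, 0 of the 201 passed. At an unadjusted p below 0.05 there were 9 (4.48%, beside 5.41% of all tested regions), 6 (2.99%, beside 5.25%), 7 (3.48%, beside 6.26%) and 7 (3.48%, beside 4.73%).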

How the data were processed

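ATAC-seq summit lists of 12 HSC libraries were analysed. Per the study's methods, the authors mapped single reads to mm10 with Bowtie2 (2.5.3) and called peaks per library with MACS2 (2.2.7.1). The deposited score of each summit is the −log10 of its q-value. The stated q cutoff was 0.001, but the lists reach scores of 2.0, so scores of at least 3 were kept. Windows of 250 bp on each side of all summits were merged into 1 catalogue and assigned to GENCODE (vM21, GRCm38) genes. Annotated starts were those of the transcripts in the basic GENCODE set. Each list was also cut to 35714 summits, the length of the shortest, since counts and depth were not in the files. Ranks among the 52264 regions held in at least 1 such list were turned into normal scores and fitted with limma (3.58.1, R 4.3.3) in 1 model of the 4 groups, with Benjamini-Hochberg adjustment over 37870 regions held in at least 3 lists and a threshold of 0.01. The study's own test, edgeR on reads, needs counts and was not run. Motifs were read within 100 bp of the highest summit. The fitting script was tested on simulated data. All gene symbols matched the annotation, 2 of them by an older symbol.

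The genes, lists and tests were chosen with earlier results of these data known. Regions named with library values were those past the threshold, the 3 highest and 3 lowest by age among promoter and among other regions, the 3 lowest p at 18 months, the 3 highest and 3 lowest main promoter regions, and genes without a promoter region in all lists. Libraries are separate pools of mice, all prepared on 1 day. The largest overlap in exact summit positions between a pair of lists was 1.29%. Alternatives in list length, scores, windows, filters, scale, covariates and libraries are given at the end. Some cell type marker genes are not reported here.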

Additional observations from a re-analysis of the deposited data

How the results depend on the processing

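Counts of member regions past the threshold stayed at 0 for age in each genotype, for genotype at 3 and at 18 months or with ages pooled, and for the interaction, under every alternative run, including separate fits of the 2 groups compared. For age over both genotypes the count was 1 with lists of unequal length and 2 at an adjusted p below 0.05, and without single libraries it ranged from 0 to 1, reaching 1 without Young Mlkl-/- replicate 2. The 1 region in both cases was the one 5.3 kb upstream of Nrf1 (adjusted p of 0.00803 and 0.00329). The median age difference of promoter regions, -0.05 in normal score, was 0.10 with list length as a covariate and -0.12 with Y-linked summits as a covariate, and without single libraries it ranged from -0.090 (without Aged WT replicate 2) to 0.028 (without Young Mlkl-/- replicate 3), and it was 0.01 without Aged WT replicate 3, so its sign was not stable, and the cause was not tested. That of all regions other than promoters was -0.12 and ranged from -0.18 to -0.05 without single libraries. The number of regions was 103 with scores of at least 5, 111 with all deposited scores, 89 in equal-length lists, 130 with windows of 100 bp and 79 within 2 kb of the genes, and 35 genes had a promoter region in all 12 lists under each of these. With replicate numbers as a block, the counts for all 7 comparisons were 0. Same-numbered libraries of different groups deviated from their group means with correlations of -0.32 to 0.14 over tested regions (18 pairs, 1 above 0.1). These values showed no pairing by number, but with 3 libraries per group they cannot exclude it. Different-numbered libraries had correlations of -0.19 to 0.32 (36 pairs, 6 above 0.1). The 3 libraries without the file-name tag correlated with one another at 0.32, 0.11 and 0.12. Of the libraries with the tag, Young Mlkl-/- 3 and Aged WT 2 had 0.29. Whether the tag bears on these values was not tested. Unknown depth, 3 libraries per group and lists that end at a score threshold limit what small differences could be seen, and uncalled regions share 1 tied rank.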
